A study of Drosophila melanogaster with 2 samples.

Results

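The cuticle protein gene families examined here are the Drosophila melanogaster genes whose symbols begin with Cpr, Lcp, Pcp, Ccp84, Acp65, Twdl or Edg. Of 13945 protein-coding genes in the BDGP6 annotation, 123 had such a symbol. One of them, Cpr itself, encodes NADPH-cytochrome P450 reductase, which is no cuticle protein, and it was set aside, which left 122 genes. The Cpr family held 70 of them, Twdl 25, Lcp 15, Ccp84 7, Edg 3, and Pcp and Acp65 1 each. They were asked for binding by Ftz-F1, an orphan nuclear receptor, in chromatin immunoprecipitation sequencing (ChIP-seq) of whole embryos. The flies, a strain named ftz-f1-GFP, carried an insertion that makes Ftz-F1 with GFP at its C-terminus, and the immunoprecipitation used an antibody against GFP. There was 1 group of 2 libraries, labelled biological replicates 1 and 4, from embryos of mixed sex aged 0 to 24 hours. The promoter that drives the fusion is not given in the sources used here, and nothing says that the replicates came from separate cultures. With no second condition to set them against, the cuticle protein genes are compared with the other genes of the same lists.

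The cuticle of the fly is a layered shell of chitin fibres and proteins that epidermal cells secrete in the late embryo and again before each moult. Most proteins named Cpr, Lcp, Pcp, Ccp84, Acp65 and Edg carry the Rebers-Riddiford sequence, a stretch that binds chitin, whereas the Tweedle (Twdl) proteins form a separate family that shapes the body. Ftz-F1 is known for making tissues ready to respond to ecdysone, the moulting steroid, and in prepupae it is known to bind and switch on Edg84A, which makes this family a natural place to look for its sites.

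Ftz-F1 binds DNA as a monomer at sequences around AAGGTC, with CAAGGTCA as a common full form. The 150 bases before the start of Edg84A, the textbook target, are shown with those of Edg78E, another ecdysone-dependent cuticle gene. Capitals mark the full form, read on the other strand as TGACCTTG, and the TATA box. The sequences come from the release 6 reference assembly, which shares the dm6 coordinates, and are given in the direction of transcription.
Edg84A: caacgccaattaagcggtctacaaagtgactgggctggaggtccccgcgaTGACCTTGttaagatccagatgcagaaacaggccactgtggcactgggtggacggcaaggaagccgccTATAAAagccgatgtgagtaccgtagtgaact
Edg78E: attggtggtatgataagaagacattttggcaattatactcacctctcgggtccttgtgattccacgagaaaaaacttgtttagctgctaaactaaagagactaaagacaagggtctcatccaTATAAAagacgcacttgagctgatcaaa
They lie at chr3R:6684295-6684444 on the plus strand and chr3L:21297804-21297953 on the minus strand of dm6. Edg84A held the full form 100 bp before its start, whereas Edg78E held neither it nor AAGGTC in these 150 bases. In the embryo that Edg84A site stood 471 bp from the nearest summit of the list pooled from both replicates. It stood 37279 bp from the nearest summit of the thresholded list.

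The authors deposited 2 kinds of peak list. The pooled list, made from both replicates, holds 30000 entries, peaks together with background regions. The thresholded list keeps those that passed an analysis of the irreproducible discovery rate (IDR), which asks that peak ranks repeat between replicates, and its 3960 peaks were ranks 1 to 3960 of the pooled list by the authors' signal value. A gene was counted as holding a summit where one lay within the gene or in the 2000 bp upstream of it. Read depth is unknown from such lists, so a gene without a summit is a gene without a listed summit. In whole embryos, binding in fewer cells and weaker binding in each cell cannot be told apart.

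Cuticle protein genes were nearly without IDR summits. Only 2 of 122 held one, or 1.64% (95% Wilson interval 0.451 to 5.78%), against 26.1% of all protein-coding genes. Cuticle protein genes are short, with a median length of 954.5 bp against 2166 bp for all genes, and short genes offer less room for a summit. At the same gene lengths, 16.7% of the other genes held an IDR summit, which would be 20.4 genes among 122, and the upper bound of the interval lies below that share. In the lowest length decile, 0 of 30 cuticle protein genes held an IDR summit, which allows a share of up to 11.4%, against 8.79% of the other genes there, so no difference was detectable in that decile alone. In the next decile, 0 of 34 did, which allows up to 10.2%, against 11.8%. The intervals cover counting error only, and neighbouring genes that share a summit are not independent.

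At the transcript start itself, 0 of 122 cuticle protein genes had an IDR summit within 500 bp, which allows a share of up to 3.05%, against 18.4% of all genes and 11.7% of other genes at the same lengths. The pooled list, which reaches far weaker peaks, held a summit for 52 of the 122 genes, or 42.6% (34.2 to 51.5%), against 69.1% of all genes and 55.9% of other genes at the same lengths. Within 500 bp of their own start, 29 cuticle protein genes had a pooled summit, or 23.8% (17.1 to 32.1%), against 57.8% of all genes and 43.5% at the same lengths. Over all lengths together, the cuticle protein genes thus stood below the other genes in both lists. The pooled shares did not run that way in every length decile: in the lowest, 17 of 30 cuticle protein genes, or 56.7% (39.2 to 72.6%), had a pooled summit, against 39.0% of the other genes there, and in the sixth, 5 of 5 did, against 75.3%. In the deciles from 725 to 1023 bp and from 1023 to 1344 bp the pooled shares were 35.3% and 29.2%, against 49.3% and 59.7%.

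**Figure D1:**
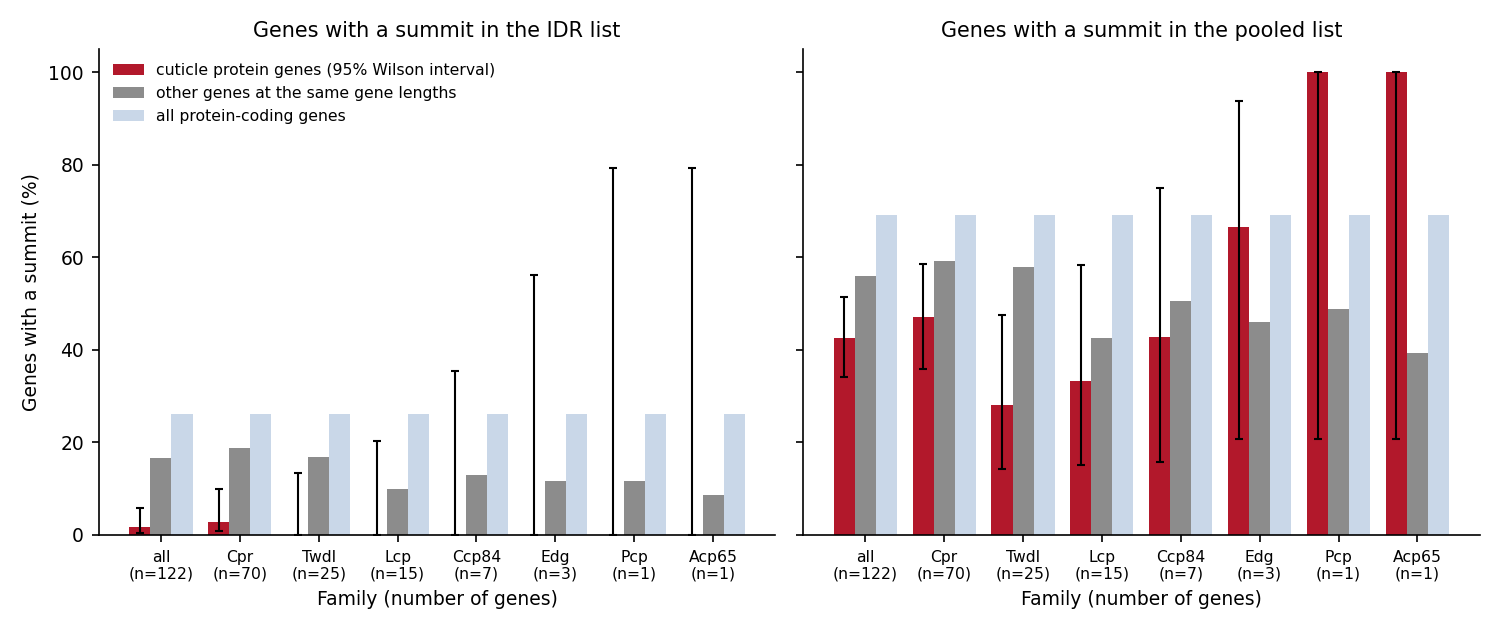
Share of genes with a summit within the gene or in the 2000 bp upstream of it (y axis, %) by family (x axis), for the IDR list (left) and the pooled list (right). Red bars are cuticle protein genes with 95% Wilson intervals, grey bars other genes at the same lengths and blue bars all protein-coding genes. In the IDR list only Cpr has a red bar, at 2.86%, beside 18.7% at the same lengths.

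Split by the rank of each gene's strongest pooled summit, the cuticle protein genes had lower shares than other genes in the strong ranks and higher shares in the weak ones. Each gene counts only in the band of its strongest summit, so fewer genes in the strong ranks leave more for the weak ones. The higher shares in the weak ranks are thus not a separate result. Ranks 3961 to 10000 took 13 of them, or 10.7%, against 18.3% of other genes at the same lengths. Ranks 10001 to 20000 took 24, or 19.7%, against 13.3%, and ranks 20001 to 30000 took 13, or 10.7%, against 7.51%. The remaining 70, or 57.4%, had no pooled summit at all, against 44.1% at the same lengths. Among genes that had a pooled summit, the median rank of the strongest was 15285 in cuticle protein genes and 5777 in all genes. Those medians were not matched for gene length.

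**Figure D2:**
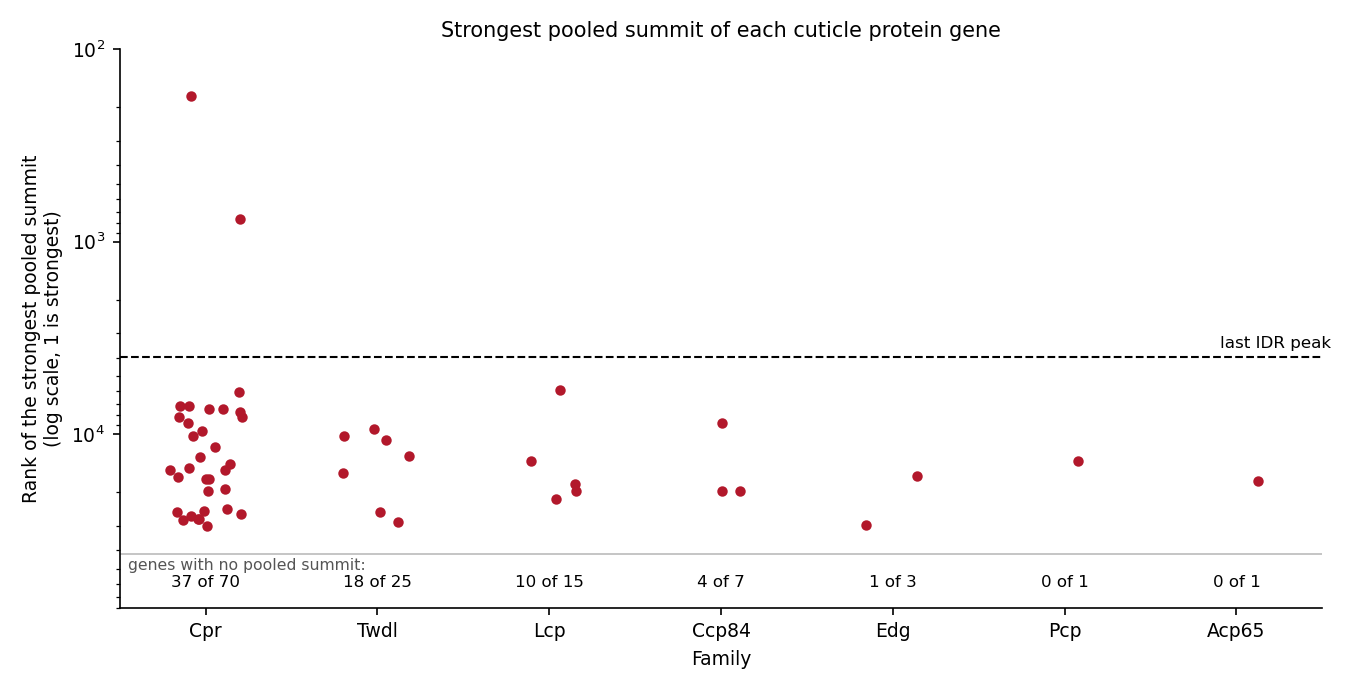
Rank of the strongest pooled summit (y axis, log scale, 1 is strongest) of each cuticle protein gene, by family (x axis), with the number of genes without a pooled summit below the grey line. Each point is a gene, and the dashed line is the last IDR peak, rank 3960. Only Cpr57A (rank 176) and Cpr73D (rank 764) lie above it.

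The 2 replicate lists gave the same picture on their own. Among the strongest 3960 peaks of replicate 1, 2 cuticle protein genes held a summit, Cpr57A and Cpr73D. The share was 26.7% of all genes and 17.5% of other genes at the same lengths. Among the strongest 3960 of replicate 4, 3 did, those 2 and Lcp9, against 25.3% of all genes. Over the full replicate lists, 38 cuticle protein genes, or 31.1%, had a summit in both, against 64.8% of all genes, and 53, or 43.4%, had one in neither, against 24.8%. A further 10, or 8.20%, were listed in replicate 1 alone, against 4.96% of all genes, and 21, or 17.2%, in replicate 4 alone, against 5.42%. The shares over the full replicate lists were not matched for gene length.

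**Figure D3:**
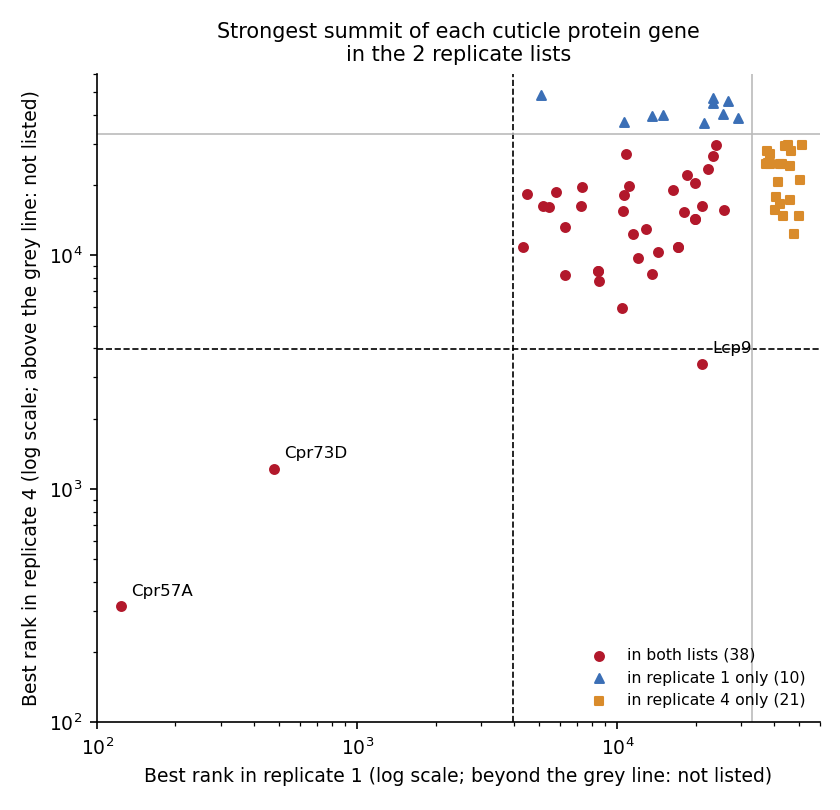
Rank of the strongest summit of each cuticle protein gene in the replicate 1 list (x axis, log scale) and the replicate 4 list (y axis, log scale), with genes listed in only 1 replicate beyond the grey lines. Dashed lines mark rank 3960. Cpr57A and Cpr73D stand apart in the strong corner, and Lcp9 passes the line in replicate 4 but not in replicate 1.

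The Cpr family, the main group of Rebers-Riddiford proteins, held both genes with an IDR summit, 2 of 70 or 2.86% (0.787 to 9.83%), against 18.7% of other genes at the same lengths. In the pooled list 33 of the 70 had a summit, or 47.1% (35.9 to 58.7%), against 59.2% at the same lengths.

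Cpr73D, on 3L, is the longest-reaching case, a gene of 18590 bp with 8 pooled summits in its window, 2 of them in the IDR list. The stronger had a pooled signal value of 209 (rank 764) and ranked 477 in replicate 1, with a signal value of 126, and 1220 in replicate 4, with 89.0. It lay 1263 bp before the start of Cpr73D, inside the body of Ogdh, which encodes a subunit of the 2-oxoglutarate dehydrogenase complex. The weaker had a pooled signal value of 95.9 (rank 3660), close to the value of 91.8 at the end of the IDR list, and ranked 6504 in replicate 1 and 2199 in replicate 4. It lay 1439 bp inside Cpr73D but only 486 bp from a start of Ogdh. Repeated sequence bears on this gene: 44.1% of the 31-base words in its window occur more than once in the genome, and the part this plays in the summits was not tested. The 101 bases around both summits are shown because they are the IDR summits of a cuticle protein gene on this arm.
Cpr73D, rank 764: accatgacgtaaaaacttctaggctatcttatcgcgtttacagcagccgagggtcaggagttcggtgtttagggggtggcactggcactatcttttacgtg
Cpr73D, rank 3660: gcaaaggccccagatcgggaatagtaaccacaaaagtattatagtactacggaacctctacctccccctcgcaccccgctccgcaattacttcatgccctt
They are the plus strand of chr3L:16958902-16959002 and chr3L:16956200-16956300. Neither window held AAGGTC on either strand, so neither carries capitals.

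Between Cpr76Ba and Cpr76Bb, a pair of Cpr genes that point away from each other on 3L, stood 1 of 2 pooled summits of cuticle protein genes that had the full form CAAGGTCA within 100 bp. The other was inside Edg91, 91 bp from a transcript start, at rank 20593. The summit between Cpr76Ba and Cpr76Bb ranked 7448 in the pooled list, with a signal value of 61.5. It ranked 8456 in replicate 1 and 8577 in replicate 4, so the replicates placed it alike, and it was not in the IDR list. The site was 61 bp from the summit, 413 bp before the start of Cpr76Ba and 911 bp before that of Cpr76Bb. Capitals mark it in the 151 bases of chr3L:19518606-19518756, plus strand.
Cpr76Ba and Cpr76Bb: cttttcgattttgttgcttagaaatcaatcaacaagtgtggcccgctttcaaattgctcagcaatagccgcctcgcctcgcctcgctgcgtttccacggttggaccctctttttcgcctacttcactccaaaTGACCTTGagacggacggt
Cpr76Ba was also the gene whose start was nearest to an IDR summit of signal value 123 (rank 2293), 1597 bp away and 817 bp beyond the end of the gene.

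Cpr57A carried the strongest summit of all 122 genes, with a signal value of 385 at rank 176 of the pooled list. It ranked 123 in replicate 1, with a signal value of 219, and 314 in replicate 4, with 165. That summit was 1997 bp before the start of Cpr57A, just inside the 2000 bp window, on arm 2R, and 24 bp from the starts of BORCS7 and CG13430. Its window also held the letters of the M1BP site, a sequence found at the promoters of many broadly expressed genes. Cpr57A shares its span with the gene model of Obp57d on the same strand, so summits there cannot be given to one of them alone. At the shared start itself, 82 bp away, the pooled list had a summit of signal value 61.4 (rank 7468), outside the IDR list.

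Other Cpr genes had weaker summits. Cpr51A had a pooled summit 275 bp from its own start, with a signal value of 70.9 (rank 6041). The best ranks in the gene's window were 4326 in replicate 1 and 10898 in replicate 4. The summits given to Cpr72Ec (rank 8156) and Cpr47Eg (rank 8173) were 53 bp from the start of CG4842 and 27 bp from that of Vhl, the fly homologue of the von Hippel-Lindau protein. Over all families, the windows held 85 distinct pooled summits. For 68 of them, no other protein-coding gene started closer than a cuticle protein gene did. Of these, 33 lay within 500 bp of that start. The 68 include the summit of rank 7468, at the start that Cpr57A shares with Obp57d. The windows were drawn around cuticle protein genes, which favours their starts. The matching share for all genes was not worked out.

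The larval cuticle protein genes (Lcp), which include the classical abundant proteins of the larval shell, had an IDR summit in 0 of 15 genes, which allows a share of up to 20.4%, against 9.85% of other genes at the same lengths, so no difference was detectable in this family. In the pooled list 5 of 15 had a summit, against 42.6% of other genes at the same lengths. The best was that of Lcp9, with a signal value of 72.0 (rank 5901), and it lay 10 bp from the start of the neighbour CG3594. The replicates placed it far apart, at rank 21222 with a signal value of 14.3 in replicate 1 and rank 3432 with 52.5 in replicate 4. Lcp65Ae (rank 13782) was listed in replicate 1, at rank 5082, and not in replicate 4. Lcp1, Lcp2, Lcp3 and Lcp4, which lie side by side, had no pooled summit.

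The Tweedle genes (Twdl), whose proteins hold the shape of the larval and pupal body, had no IDR summit among 25 genes, which allows a share of up to 13.3%, against 16.9% at the same lengths. Their pooled share was the lowest of the families with more than 3 genes, 7 of 25 or 28.0% (14.3 to 47.6%), against 58.0% of other genes at the same lengths. TwdlD had the strongest, 195 bp from its own start, with a signal value of 51.8 (rank 9452), ranking 11966 in replicate 1 and 9717 in replicate 4. TwdlY followed at rank 10194, 339 bp from its start, and TwdlG at rank 10734, 43 bp from a start. In these 3 genes the summit stood near the gene's own start, below the last IDR peak at rank 3960.

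The Ccp84 genes, which encode cuticle proteins of 1 group in region 84A, had no IDR summit among 7, which allows a share of up to 35.4%, against 12.9% of other genes at the same lengths. They had a pooled summit at 3 of 7, or 42.9% (15.8 to 75.0%), against 50.5% at the same lengths. Ccp84Ag had the strongest, 161 bp from its own start, with a signal value of 54.7 (rank 8803). The best ranks in the gene's window were 13569 in replicate 1 and 8280 in replicate 4. Ccp84Ad and Ccp84Ae shared a summit of rank 19757. With 7 genes, a family share cannot be told from the background.

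The stage-named and ecdysone-named genes had weak summits or none. Pcp, a pupal cuticle protein gene that lies inside Gart on the opposite strand, had a pooled summit 43 bp from its own start, with a signal value of 38.2 (rank 13813), and ranked 18001 in replicate 1 and 15289 in replicate 4. Edg91 had 3 pooled summits, among them the one of rank 20593 with CAAGGTCA within 100 bp. Its strongest, 624 bp before the start, had a signal value of 32.8 (rank 16434), and the gene ranked 10549 in replicate 1 and 15454 in replicate 4. Acp65Aa, an adult cuticle protein gene, had 30.8 (rank 17630) at its strongest pooled summit. The gene's best ranks were 25706 in replicate 1 and 15653 in replicate 4. The replicate 4 rank is also that of Cpr65Ax2, whose window does not hold the summit of rank 17630. Edg84A had 18.4 (rank 29766), 567 bp before its start, near the very end of the list, and was listed in replicate 1 at rank 21502 and not in replicate 4. Edg78E had no summit in any of the 3 full lists.

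Most cuticle protein genes lie in groups: 88 of the 122 fell into 15 clusters of at least 3 members with gaps of at most 20 kb, which together cover 243 kb. These stretches held 1 IDR summit, where the density over the chromosome arms would give 7.19, and 61 pooled summits, where it would give 54.5. Pooled summits had a density of 25.1 per 100 kb in the clusters, against 22.4 on the arms. The nearest IDR summit outside a cluster stood between 817 bp (76B) and 37375 bp (84A) from its edge, with a median of 6252 bp. Over all cuticle protein genes, the median distance from the gene to an IDR summit was 14204 bp, against 6534 bp for all genes, and 16 of them, or 13.1%, had one within 5000 bp, against 45.2% of all genes. Genes of the same cluster stand near the same summits, so their distances are not independent. They were not matched for gene length.

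The single IDR summit inside a cluster was in 65A, which holds 18 cuticle protein genes in 31.2 kb. It had a signal value of 169 (rank 1159) and ranks of 1331 in replicate 1 and 1202 in replicate 4. It lay 156 bp from the start of the non-coding RNA gene lncRNA:CR45421 and 2302 bp from Acp65Aa, the nearest protein-coding start, outside the 2000 bp window of every cuticle protein gene. Pooled summits were given to 9 of the 18 genes of 65A, led by Cpr65Av with a signal value of 48.9 (rank 10222). For comparison, 69.1% of all genes and 55.9% of other genes at the lengths of the 122 had a pooled summit. The genes of 65A are shorter, and all fall in the lowest length decile or the next. In those deciles 39.0 and 49.3% of other genes had a pooled summit, so 65A did not stand below genes of its lengths. For the other clusters no share at their own lengths was worked out. In the cluster from TwdlM to TwdlD, 4 of 12 genes had a pooled summit, and in 84A, 4 of 8. In 47E, 3 of 7 had one, led by Cpr47Ef (signal value 60.2, rank 7671). The start nearest to that summit was the one of TpnC47D, 869 bp away. None of the 8 genes of 49A had a pooled summit, and that cluster of 38.5 kb held 1 pooled summit in all, of signal value 21.3 (rank 25980). Of the 122 genes, 12 lay wholly inside another protein-coding gene, among them the 4 genes of 64A in CG43367 and TwdlX, TwdlY, TwdlZ and Twdlalpha in goe, so a summit there is counted for the host as well. Copies within the clusters can be alike enough for short reads to be placed in several of them, and 104 of the 122 genes had under 10% of their window in repeated 31-base words. Among those 104, 1 held an IDR summit, or 0.962%, against 27.0% of all such genes, and 43.3% a pooled summit, against 71.1%. These shares were not matched for gene length, and the part that read placement plays was not tested.

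**Figure D4:**
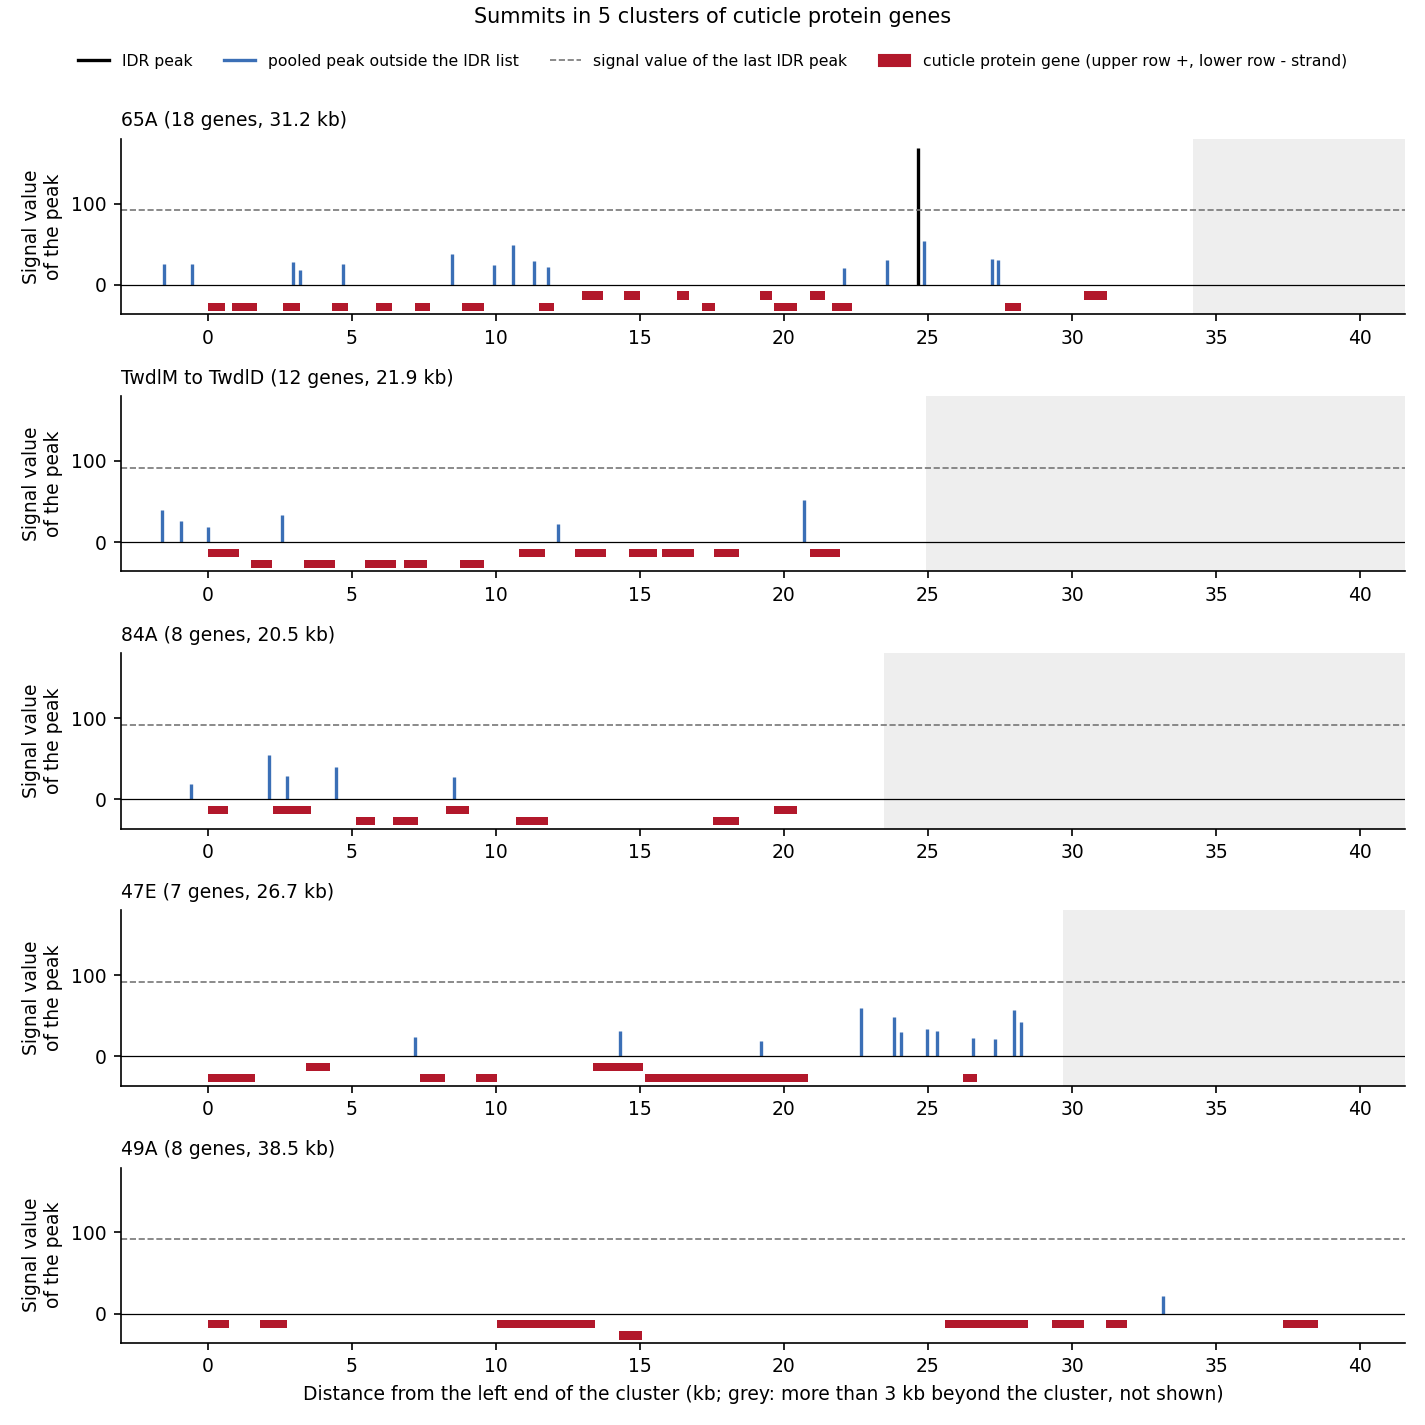
Summits in 5 clusters of cuticle protein genes, as distance from the left end of the cluster (x axis, kb) and the authors' signal value (y axis). Red boxes are cuticle protein genes, the black line is an IDR peak, blue lines are pooled peaks outside the IDR list and the dashed line is the signal value of the last IDR peak, 91.8. The 65A cluster has 1 peak above the dashed line, at 169, and the other 4 clusters have none.

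The promoters of these genes shared a core element that the choice of genes did not use. On the gene's own strand, TATAAA stood between 45 and 16 bp before the start in 75 of 122 cuticle protein genes, or 61.5%, against 8.75% of all genes. Its first base was a median of 29 bp before the start, with a range of 22 to 45 bp, which the window itself limits. All 3 Edg genes, Pcp and Acp65Aa had it, as did 5 of 7 Ccp84, 11 of 15 Lcp, 15 of 25 Twdl and 39 of 70 Cpr genes. The 45 bases before the start are shown for 1 or more genes of each family, with capitals marking the box. The genes shown do not follow the shares above.
Edg84A: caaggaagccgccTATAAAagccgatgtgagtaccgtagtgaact
Edg78E: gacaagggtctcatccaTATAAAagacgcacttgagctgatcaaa
Edg91: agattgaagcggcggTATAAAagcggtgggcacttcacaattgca
Pcp: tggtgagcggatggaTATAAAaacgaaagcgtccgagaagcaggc
Acp65Aa: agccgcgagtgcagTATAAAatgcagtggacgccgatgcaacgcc
Ccp84Ag: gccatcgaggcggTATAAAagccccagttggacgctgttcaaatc
Cpr65Av: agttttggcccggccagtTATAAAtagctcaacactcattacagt
Cpr76Ba: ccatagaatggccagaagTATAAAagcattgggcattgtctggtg
TwdlD: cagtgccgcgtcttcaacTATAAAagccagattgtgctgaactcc
Lcp65Ag1: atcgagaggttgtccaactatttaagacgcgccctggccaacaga
Cpr73D: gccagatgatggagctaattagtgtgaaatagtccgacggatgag
In Lcp65Ag1 and Cpr73D these exact letters are not in the window. Each sequence ends at the base before the annotated start, in the direction of transcription, in release 6.

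The TATA box was then set beside the summits. Of 1145 other genes with TATAAA at that place, 113, or 9.87%, held an IDR summit, against 3519 of 12678, or 27.8%, without it. Among cuticle protein genes, 0 of 75 with the box and 2 of 47 without it held one. In the pooled list the shares were 42.7% of the 75 and 42.6% of the 47. Among other genes they were 46.8% with the box and 71.4% without it. The part that promoter type plays in the low share of the cuticle protein genes was not tested.

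Other short sequences were sought on both strands from 250 bp before to 50 bp after the start. TATAAA, counted anywhere in that window, was in 75.4% of cuticle protein genes against 45.8% of all genes. The DREF site TATCGATA and the M1BP site GGTCACACT mark promoters of many broadly expressed genes, and 1 cuticle protein gene, Cpr49Af, held either, or 0.820%, against 14.6% of all genes. Of all genes with either site, 38.5% had an IDR summit. The GAGA letters GAGAGA were in 8.20% against 12.3%, and the Grainyhead site AACCGGTT, read by a factor that drives epidermal genes, was in 0 of 122, which allows a share of up to 3.05%, against 0.753%.

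**Figure D5:**
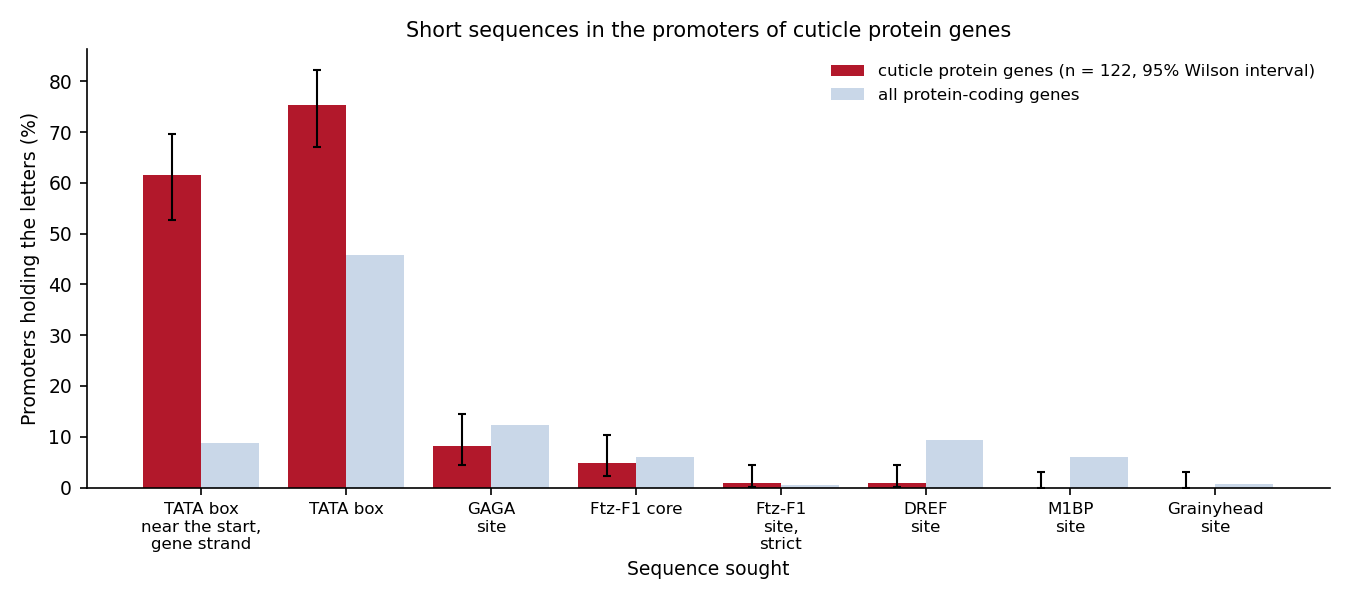
Share of promoters (y axis, %) that hold each short sequence (x axis), for cuticle protein genes (red, with 95% Wilson intervals) and all protein-coding genes (blue). The first pair counts TATAAA on the gene strand 45 to 16 bp before the start, at 61.5% and 8.75%, and the others count both strands from 250 bp before to 50 bp after the start.

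The exact Ftz-F1 letters sought, CAAGGTCA and AAGGTC, were rare in the promoters of cuticle protein genes and of all genes. Variants of these letters were not sought. CAAGGTCA was in the promoter window of 1 gene, Edg84A, or 0.820%, against 0.495% of all genes, and AAGGTC, which includes it, was in 4.92% against 6.06%. With 500 bp before the start, CAAGGTCA was in 4 of 122, or 3.28%, against 1.16% of all genes, and AAGGTC in 10.7% against 12.0%. From 2000 bp before to 50 bp after the start, 9 cuticle protein genes, or 7.38%, held CAAGGTCA, against 5.69% of all genes. These were 11 distinct sites, 2 of them within 200 bp of a pooled summit, at Cpr51A (117 bp) and at the Cpr76Ba and Cpr76Bb pair, and 0 of 11 within 200 bp of an IDR summit. Some of the 11 lay in coding exons of neighbours: those counted for Cpr64Ab, within the span of Cpr64Ac, and others in Cpr76Ba and Cpr76Bb. Cpr64Ab and Cpr76Bc had only such sites. Within 100 bp of the 85 pooled summits of cuticle protein genes, CAAGGTCA was found at 2, or 2.35%, against 1.94% of all pooled summits and 4.02% of IDR summits, and AAGGTC at 13, or 15.3%, against 9.02% and 13.6%.

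Sites with their flanks are shown for Edg84A, Edg78E and some of the others that had the full form upstream. Each has 10 bases on either side, on the strand that reads CAAGGTCA (capitals).
Edg84A, 100 bp before the start: tggatcttaaCAAGGTCAtcgcggggac
Edg84A, 1245 bp before the start: tttaaacagtCAAGGTCAatcacaagtt
Edg78E, 519 bp before the start: gaaacgtggaCAAGGTCAtcgggcagca
Cpr76Ba, 413 bp before the start: ccgtccgtctCAAGGTCAtttggagtga
Cpr92F, 440 bp before the start: gcgttgaaagCAAGGTCAtggcagctgt
TwdlB, 762 bp before the start: tattaaacgtCAAGGTCAtcgggaagct
Cpr76Bb, in a coding exon of Cpr76Ba: gcgatggcgaCAAGGTCAagggaggcta
Cpr76Bc, in a coding exon of Cpr76Bb: gggatggcgaCAAGGTCAagggcagcta
The nearest pooled summit was 471 bp away for the first Edg84A site and 675 bp for the second, 1703 bp for Edg78E, 2618 bp for TwdlB and 17053 bp for Cpr92F. The last 2 lie in coding exons of neighbouring Cpr genes, and their flanks are nearly alike.

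Set beside these families were 23 genes from 3 lists. The lists hold genes of chitin and matrix assembly, tanning genes and 4 regulators, ftz-f1 among them, which are not cuticle genes themselves. All 4 regulators held an IDR summit, which raises the joint share. Of the 23 genes, 10 held one, or 43.5% (25.6 to 63.2%), against 37.6% of genes at the same lengths. Among 14 genes of chitin and matrix assembly, 6 did, or 42.9%, against 34.9% of genes at the same lengths: kkv, the chitin synthase (signal value 127), mmy, which makes its substrate (111), knk (143), snsl (149), obst-E (93.9) and dpy (94.5). None of the 5 tanning genes did, ple, Ddc, e, y and stw, which allows a share of up to 43.4%, against 38.0% at the same lengths, so no difference was detectable. All 4 regulators did, against 46.7% at the same lengths: ftz-f1 itself, Hr3, Blimp-1 and grh, the last with a signal value of 99.7 (rank 3419). Other gene families gave these counts: 0 of 25 Osi genes held an IDR summit (up to 13.3%), 2 of 51 odorant-binding protein genes (3.92%), 0 of 16 Jonah protease genes (up to 19.4%) and 0 of 9 chorion genes (up to 29.9%), against 23.7, 14.1, 13.0 and 16.5% of genes at their lengths.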

How the data were processed

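Positions and signal values came from the dm6 peak lists the authors deposited: 1 list per replicate, 1 for both replicates pooled, each peaks with background as input to IDR, and the IDR-thresholded list. The signal value is the authors' score per peak, on a scale that the files do not state. It was used to rank and describe peaks within a list, and replicates are to be compared by rank, not by signal value. Per the listing of files that the authors deposited, a control library entered the calls, and IDR peaks were chosen from replicates and pool together. No source used here gives the aligner, the peak caller or the threshold on the IDR. All columns of the lists used were assigned to a library or the pool, and the dm3 lists were not used.

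Summits (peak start plus summit offset) on 2L, 2R, 3L, 3R, 4 and X were joined to protein-coding genes of Ensembl release 115. The share at the same lengths is the mean of other genes' shares over 10 length deciles, weighted by the cuticle genes in each. The joining and weighting were tested on simulated data. The analysis used Python 3.11.15, numpy 2.4.6, pandas 2.3.3, scipy 1.17.1 and matplotlib 3.10.9. With 1 group and 2 libraries no test between conditions exists, and shares carry 95% Wilson intervals. Named genes were all members with an IDR summit, the Edg genes, Pcp and Acp65Aa, and the strongest pooled peak of each family and of each cluster of at least 5 members; others named were chosen after their values were seen. The members, lists and comparisons were chosen with earlier results of these data known, and the TATA window was chosen after seeing the data.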

Additional observations from a re-analysis of the deposited data

How the results depend on the processing

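The count of 2 cuticle protein genes with an IDR summit was 2 under overlap of the peak interval and in the stronger part of the list (its first 1980 peaks), and 2 to 3 with either replicate left out (the strongest peaks of the other). It was 1 with 500 bp upstream, 1 with the gene body alone and 0 within 500 bp of the gene's start, against 21.7, 12.9 and 18.4% of all genes. With 5000 bp upstream it was 9 (33.5% of all genes), and with each summit given to the nearest protein-coding start it was 6 (19.3%). The P450 reductase gene Cpr, with 3 IDR summits, made it 3. Among genes with under 10% repeated words, a setting chosen after seeing the data, it was 1. The share at the same lengths was 17.0% with 5 length classes and 16.9% with 20. A gap of 50 kb put 2 IDR summits in clusters, the second in the stretch of TwdlT, Cpr97Ea and Cpr97Eb. For the 52 genes with a pooled summit, settings chosen after seeing the data gave 80 with 5000 bp upstream (75.9% of all genes), 23 in the body alone (48.5%), 29 within 500 bp of the start (57.8%), and 48 to 59 with either replicate left out (69.8 and 70.2%). As shares, 80 and 23 of the 122 genes are 65.6 and 18.9%. With 500 bp before the start, the share with the Ftz-F1 core was 10.7% against 12.0% of all genes, the TATA box 82.8% against 63.5%, the GAGA letters 15.6% against 18.4%, the full Ftz-F1 form 3.28% against 1.16% and the Grainyhead site 2.46% against 1.16%. TATAAA on the gene strand, a window chosen after seeing the data, was in 75 genes, and in 83 from 60 to 1 bp before the start. No paired analysis was possible because there is 1 group. Read depth is unknown, so weak or cell-restricted binding below the listed peaks could not be measured.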
